A study of Mus musculus with 11 samples.

Results

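The genes described here are 9 markers of border-associated macrophages, Pf4, Maf, Mrc1, Cd163, Lyve1, F13a1, Ms4a7, Cbr2 and Stab1, followed across 11 libraries of primary mouse microglia. They were taken as the rows of the raw count table that carry these symbols, and all 9 were present among its 16934 genes. The choice was made with earlier results of these data known. Border-associated macrophages are the macrophages of the meninges, choroid plexus and perivascular spaces, whereas microglia live inside the brain tissue itself. Both lineages share many macrophage genes, and the 9 symbols are used to tell border macrophages from microglia in tissue. Macrophages can change how strongly they express these genes in culture, so each was read here as a transcript level and not as a count of border macrophages.

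Microglia were prepared from C57BL/6 pups at postnatal day 0 to 3 and cultured for 7 to 10 days in medium with 10% serum. In the first group, microglia alone, 4 libraries were made from cells without neurons. The second group, with untreated neurons, has 3 libraries of microglia kept for 6 h with primary cortical neurons that had been 14 days in vitro. The third group, with fibril-loaded neurons, has 4 libraries of microglia kept for the same 6 h with neurons of that age which had first been given α-syn fibrils tagged with the dye Atto488, at 0.1 µM for 16 h, and then washed. RNA was read by 3′ mRNA sequencing, which counts reads near the ends of transcripts. The labels do not say how neurons were removed before RNA extraction. Nor do they tell whether libraries of a group are independent cultures, so every p-value rests on the spread among these libraries, which may be technical. All values are of bulk RNA, in which fewer cells of a type and less RNA per cell cannot be told apart.

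Total counts per library ran from 8253070 to 16802451, and between 9157 and 11739 genes had a count. The ribosomal RNA precursor Rn45s took 14.0% to 24.8% of the counts in microglia alone, 10.7% to 15.7% with untreated neurons and 10.97% to 17.01% with fibril-loaded neurons. Levels are given as TMM-scaled CPM, that is counts divided by library size after adjustment by the trimmed mean of M values. Adjusted p-values are from edgeR's quasi-likelihood test over all 11 libraries, two-sided, with Benjamini-Hochberg adjustment over the 11276 genes tested, and a gene is called at an adjusted p below 0.05. Because the reads come from transcript ends and are not divided by length, levels are compared between groups and not between genes.

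The label was checked against the most restricted members first. Lyve1, a hyaluronan receptor of perivascular and leptomeningeal macrophages and of lymphatic endothelium, had no count in any of the 11 libraries. A count of 0 allows up to 3 counts in a library, which is 0.178 to 0.350 CPM over these depths. Cd163, the haemoglobin-haptoglobin scavenger receptor, had 81 counts (4.80 CPM) in library 3 with untreated neurons and none in the other 10 libraries. Neither gene passed the filter on low counts, so 7 of the 9 members were tested, and 6 of those had a count in every library. Lyve1 and Cd163 were thus absent or nearly so, while Pf4, Maf, Mrc1, Ms4a7 and Stab1 were each above 100 CPM in all libraries. The 9 genes are therefore treated below as a list of named transcripts and not as evidence of a cell population.

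By RefSeq's GRCm38.p6 annotation, the assembly that mm10 (the build in the submitters' processing notes) is made from, the genes lie on 9 different chromosomes. Pf4 is at chr5:90772435-90773383, Maf at chr8:115703253-115706894, Mrc1 at chr2:14229414-14332023 and Cd163 at chr6:124304636-124330529. Lyve1 is at chr7:110850607-110862953, F13a1 at chr13:36867178-37050244, Ms4a7 at chr19:11321039-11336146, Cbr2 at chr11:120729485-120732025 and Stab1 at chr14:31139017-31168651. Reads of Stab1 can be shared with 2 neighbours that are also in the count table, Nt5dc2 over 108 bases and the gene model Gm52148 over 683 bases, and Cd163 overlaps the gene model Gm52877. Whether strand was used in counting is not given in the sources used here, and without it reads from overlapping genes cannot be told apart.

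Upstream sequence was available for 7 of the 9 members from RefSeq, GRCm38.p6. It is shown for 1 member of each pattern described below, Pf4, Mrc1 and Stab1. Each window is the 250 bases before an annotated start site, read 5′ to 3′ on the gene's strand. For Stab1, Cd163 and Cbr2 that site lies inside the gene span given above, so the window takes in the span's first bases. Capitals mark the 6-letter core of the PU.1 site, GAGGAA, and the 6-letter MAF half-site, TGCTGA, each searched on both strands (reverse complements TTCCTC and TCAGCA). PU.1 is the lineage factor of macrophages, and MAF is the protein encoded by the member Maf.

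Pf4, chr5:90772185-90772434, + strand: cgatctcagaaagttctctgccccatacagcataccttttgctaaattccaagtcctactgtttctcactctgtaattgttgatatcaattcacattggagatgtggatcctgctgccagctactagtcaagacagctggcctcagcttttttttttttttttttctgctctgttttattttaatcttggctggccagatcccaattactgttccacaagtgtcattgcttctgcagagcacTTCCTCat
Mrc1, chr2:14229164-14229413, + strand: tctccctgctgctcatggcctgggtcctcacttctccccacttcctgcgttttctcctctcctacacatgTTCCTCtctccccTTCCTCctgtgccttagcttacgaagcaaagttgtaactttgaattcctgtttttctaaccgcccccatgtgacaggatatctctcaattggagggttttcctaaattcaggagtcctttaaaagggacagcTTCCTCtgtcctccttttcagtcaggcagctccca
Stab1, chr14:31168642-31168891, - strand: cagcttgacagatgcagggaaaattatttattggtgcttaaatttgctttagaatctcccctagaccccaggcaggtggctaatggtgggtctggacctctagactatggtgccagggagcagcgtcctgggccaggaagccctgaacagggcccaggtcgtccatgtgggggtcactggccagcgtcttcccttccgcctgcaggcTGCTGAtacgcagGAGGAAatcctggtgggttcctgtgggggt

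The Pf4 window held 1 PU.1 core, 8 bases before the start. The Mrc1 window held 3, at 180, 167 and 35 bases before the start. In the Stab1 window, 1 MAF half-site stood 43 bases and 1 PU.1 core 30 bases before the start. Among the other windows, those of Cbr2 and of the first F13a1 start each held 1 PU.1 core, and those of Cd163, the second F13a1 start and both Ms4a7 starts held neither motif. Of 32851 windows of the same length in the RefSeq table, 23.3% held a PU.1 core and 16.1% a MAF half-site. These matches describe letters in the windows and say nothing of binding.

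Pf4 encodes platelet factor 4, the chemokine CXCL4, which platelets store and which border macrophages transcribe. In microglia alone its level was 142, 299, 284 and 239 CPM in libraries 1 to 4. With untreated neurons it was 579, 681 and 559 CPM in libraries 1 to 3. With fibril-loaded neurons it was 469.9, 805, 573 and 366 CPM in libraries 1 to 4. Every co-culture library lay above every library of microglia alone, and the 2 co-culture groups overlapped. The means were 241 ± 70.9 CPM (SD, n = 4), 606 ± 65.1 CPM (SD, n = 3) and 553 ± 188 CPM (SD, n = 4). Pf4 rose 2.52-fold with untreated neurons (log2 fold change 1.33, SE 0.31, edgeR adjusted p = 0.0488). It was the only member called in that comparison, in which 0.461% of genes were called higher and 0.177% lower. Against microglia alone, the level with fibril-loaded neurons was 2.30-fold higher but was not called (log2 fold change 1.20, SE 0.29, edgeR adjusted p = 0.1).

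The call of Pf4 lay close to the threshold. It was lost in 10 of the 11 fits that left out 1 library, and held only without library 2 with fibril-loaded neurons (edgeR adjusted p = 0.0489). In the other 10 fits the adjusted p ran from 0.054, without library 4 with fibril-loaded neurons, to 0.133, without library 1 with untreated neurons, while the log2 fold change stayed between 1.15 and 1.46. With both co-culture groups averaged against microglia alone, a comparison chosen after seeing the data, Pf4 was called at a log2 fold change of 1.27 (SE 0.27, edgeR adjusted p = 0.0223). In that comparison 0.603% of genes were called higher and 0.426% lower.

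Because platelets also carry Pf4 transcript, platelet and megakaryocyte markers were read beside it. Their summed level over 7 listed genes was 17.1 to 56.9 CPM in microglia alone, 0.907 to 17.4 CPM beside untreated neurons and 2.01 to 14.8 CPM beside fibril-loaded neurons. Most of the sum in microglia alone came from Itgb3 and Treml1, with means of 16.5 and 9.10 CPM. Gp5, a platelet membrane glycoprotein, had no count in any library, and none of the 4 markers tested was called in any comparison by edgeR or DESeq2 (0 of 4 at an unadjusted p below 0.05). Itga2b, the platelet integrin subunit, was at 0 in every library of microglia alone and with untreated neurons. With fibril-loaded neurons it had 14 counts (1.31 CPM), all in library 3. Ppbp, the other abundant platelet chemokine gene, reached at most 0.0992 CPM in microglia alone, 10.2 CPM with untreated and 6.54 CPM with fibril-loaded neurons. Its highest values were thus in co-cultures, and it had no count in 2 of 3 libraries with untreated and 2 of 4 with fibril-loaded neurons. Pf4 was higher in every co-culture library than in microglia alone, as given above. The part of platelet RNA in the level of Pf4 was not tested.

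Maf encodes a large MAF transcription factor of macrophages. Its level in microglia alone was 287, 323, 410.3 and 304 CPM in libraries 1 to 4. With untreated neurons it was 185, 146 and 192 CPM in libraries 1 to 3. In libraries 1 to 4 with fibril-loaded neurons it was 110.2, 152, 188 and 185 CPM. All 7 co-culture libraries lay below the lowest library of microglia alone, and the co-culture groups overlapped. The means were 331 ± 54.9 CPM (SD, n = 4), 174 ± 24.5 CPM (SD, n = 3) and 159 ± 36.3 CPM (SD, n = 4). In neither comparison was the lower level called, with a log2 fold change of -0.92 (SE 0.30, edgeR adjusted p = 0.206) for untreated and of -1.06 (SE 0.27, edgeR adjusted p = 0.116) for fibril-loaded neurons. With both co-culture groups averaged, the comparison chosen after seeing the data, Maf fell by 0.99 on the log2 scale (SE 0.23, edgeR adjusted p = 0.0385).

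Mrc1 encodes the mannose receptor CD206, a lectin that takes up mannose-rich glycoproteins and is the usual surface marker of border macrophages. In microglia alone it stood at 320.2, 309.9, 287 and 350.1 CPM in libraries 1 to 4. With untreated neurons the values were 265, 196 and 119 CPM in libraries 1 to 3. With fibril-loaded neurons they were 223, 123, 145 and 139 CPM in libraries 1 to 4. No co-culture library reached the lowest library of microglia alone, with library 1 of each co-culture group nearest to it. The means were 317 ± 26.1 CPM (SD, n = 4), 194 ± 72.8 CPM (SD, n = 3) and 157 ± 44.7 CPM (SD, n = 4). Mrc1 was not called with untreated neurons (log2 fold change -0.71, SE 0.32, edgeR adjusted p = 0.444) or with fibril-loaded neurons (log2 fold change -1.01, SE 0.29, edgeR adjusted p = 0.194). Nor was it called with both co-culture groups averaged (log2 fold change -0.86, edgeR adjusted p = 0.124).

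**Figure D1:**
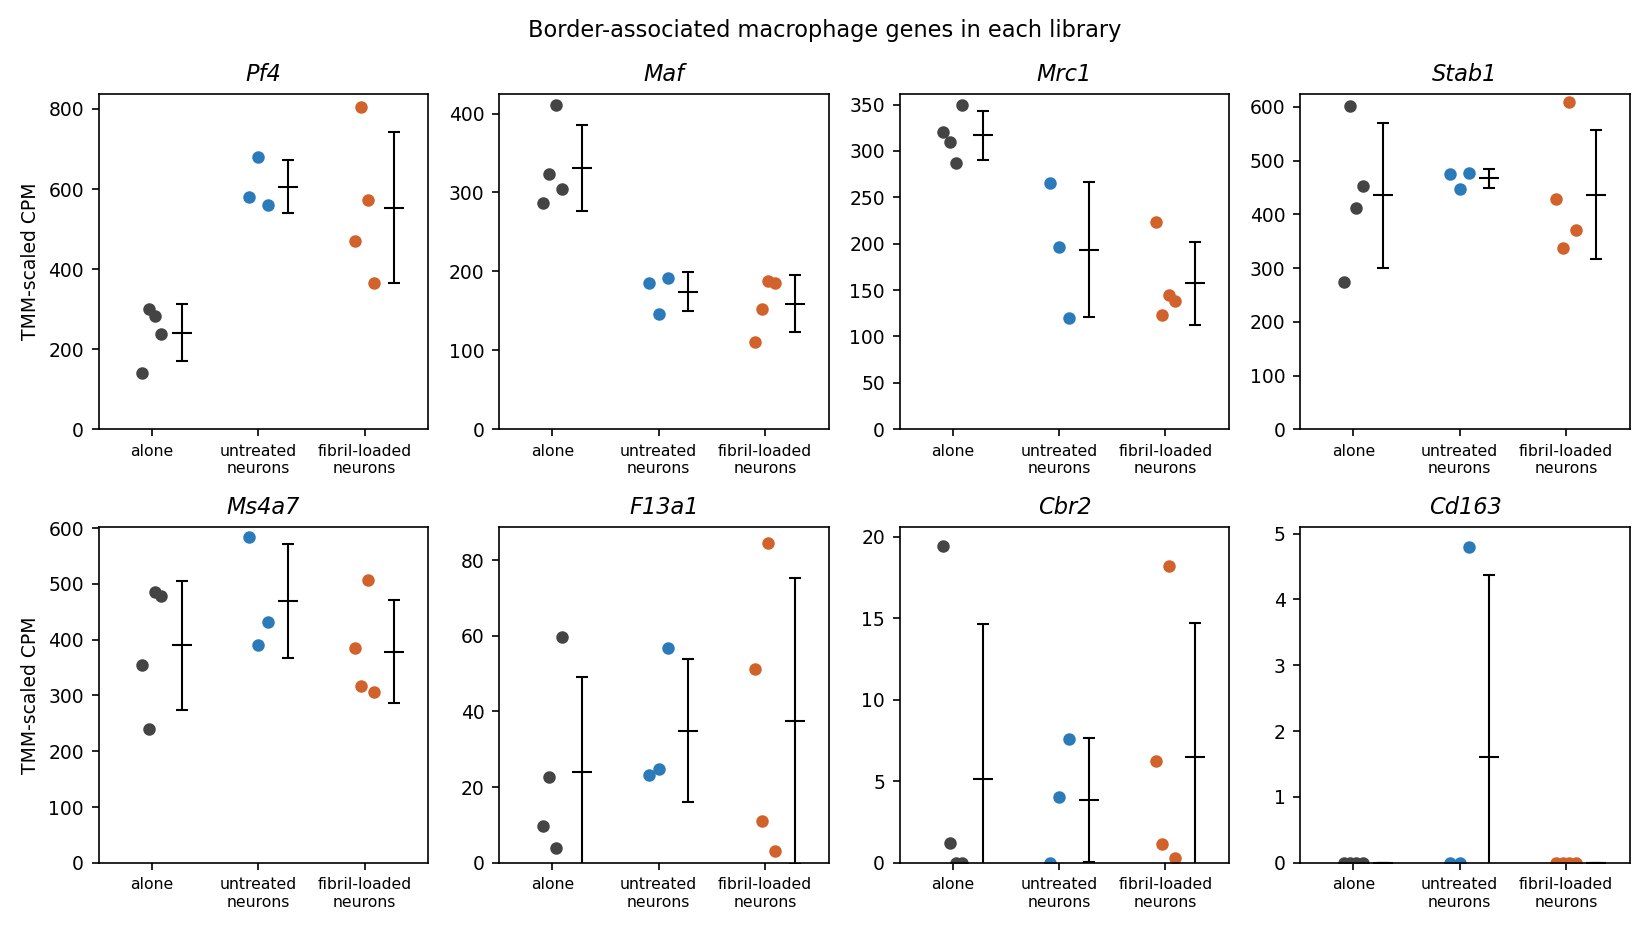
TMM-scaled CPM of 8 of the 9 genes, 1 point per library, in microglia alone (4 libraries), with untreated neurons (3) and with fibril-loaded neurons (4). The bar beside each group is the mean ± SD, cut at 0 where the SD exceeds the mean. Pf4 lies higher and Maf and Mrc1 lower in all 7 co-cultures, while the groups overlap for Stab1, Ms4a7, F13a1 and Cbr2, and Cd163 has a count in 1 library. Lyve1, with no count, is not drawn.

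Among the 7 tested members, 1 (Pf4) lay wholly above and 2 (Maf and Mrc1) wholly below microglia alone in the comparison with untreated neurons, where 4.9% of all genes tested lay wholly above and 5.45% wholly below. The same 3 genes stood apart in the same directions with fibril-loaded neurons, where the shares of all genes were 2.7% above and 2.92% below. These comparisons share the 4 libraries of microglia alone, so their members' values are set side by side and are not independent. The members, and the lists below, were chosen with earlier results of these data known. Shares of all genes are therefore given for scale, and an excess over them is a description and not a test. In the comparison with untreated neurons, 3 of the 7 members had an unadjusted p below 0.05, as had 10.3% of all genes tested. With fibril-loaded neurons no member was called by edgeR (0.266% of genes were called higher and 0.0532% lower), and 3 of 7 had an unadjusted p below 0.05, as had 8.14% of all genes. DESeq2 called 3 of 7 there, Pf4 higher and Maf and Mrc1 lower, and 1.99% of all genes. With untreated neurons DESeq2 called Pf4 and Maf, and 4.02% of all genes. The 7 members had a median log2 fold change of 0.10 in the first comparison and 0.01 in the second, beside -0.05 and -0.04 over all genes tested. A joint edgeR test for any difference between the 3 groups, which called 0.435% of genes, called no member. The smallest adjusted p in it were 0.0855 for Pf4 and 0.126 for Maf, 3 of the 7 members had an unadjusted p below 0.05 (7.25% of all genes), and DESeq2's likelihood ratio test called Pf4 and Maf (1.53% of all genes).

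The opposed shifts can be read within each library from ratios, which do not depend on how libraries are scaled. Pf4 to Maf was 0.494 to 0.927 in microglia alone, 2.92 to 4.65 with untreated neurons and 1.98 to 5.29 with fibril-loaded neurons. Pf4 to Mrc1 was 0.443 to 0.988, 2.19 to 4.68 and 2.11 to 6.54 in the same order. Both ratios separated every co-culture library from every library of microglia alone. This follows from the ranges of Pf4, Maf and Mrc1 given above and adds no separate evidence. In contrast, the ratio of Mrc1 to Maf, the pair that was lower, overlapped between all groups at 0.700 to 1.15, 0.624 to 1.43 and 0.750 to 2.02. These ratios describe unequal change of the paired genes and were not tested.

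**Figure D2:**
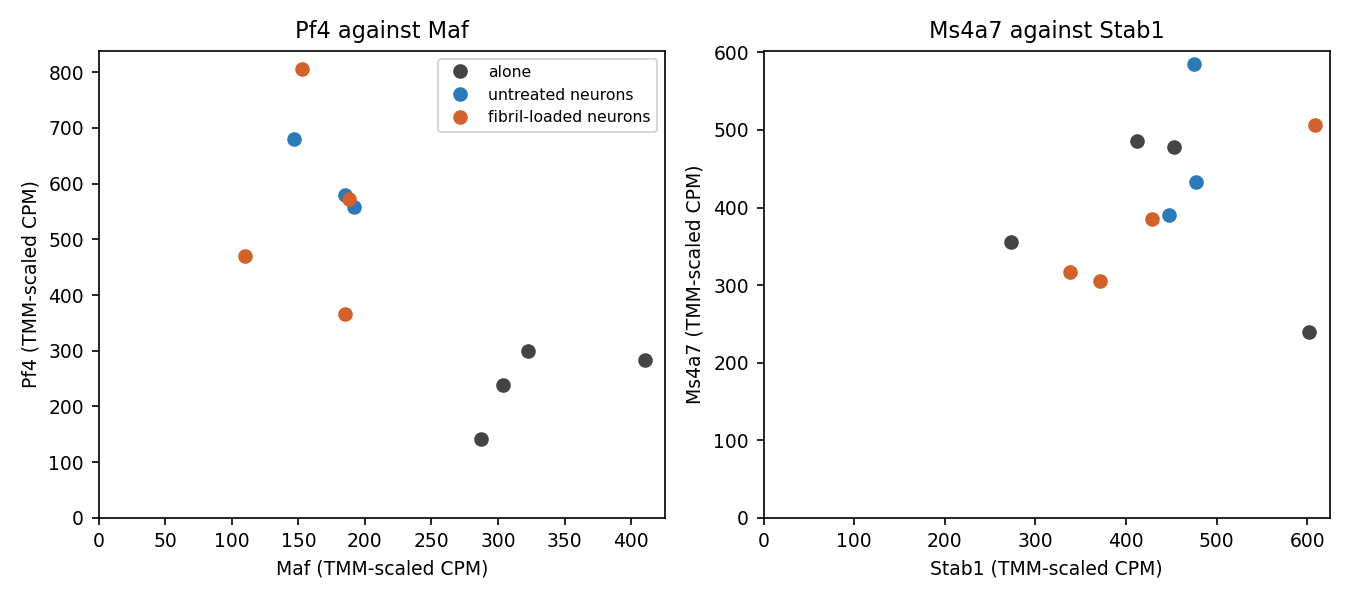
Left, Pf4 against Maf, and right, Ms4a7 against Stab1, in TMM-scaled CPM, with 1 point per library coloured by group. Microglia alone (Pf4 142 to 299 CPM, Maf 287 to 410.3 CPM) sit at the lower right of the left panel, apart from the 7 co-cultures, and the groups mix in the right panel.

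Ms4a7 encodes a tetraspanning membrane protein of the MS4A family and is a widely used marker of border macrophages against microglia in tissue. In microglia alone it was at 355, 239.7, 485 and 478 CPM in libraries 1 to 4. With untreated neurons it was at 585, 391 and 432 CPM in libraries 1 to 3. The 4 libraries with fibril-loaded neurons were at 385, 316, 506 and 306 CPM. The 3 groups overlapped, and the lowest of the 11 libraries was library 2 of microglia alone. The log2 fold changes were 0.27 (95% interval -0.35 to 0.89) with untreated and -0.04 (95% interval -0.62 to 0.54) with fibril-loaded neurons.

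Stab1 encodes stabilin-1, a scavenger receptor that takes up modified lipoproteins and matrix fragments. Its levels in microglia alone were 273, 602, 412 and 452 CPM in libraries 1 to 4. With untreated neurons they were 475, 447 and 477 CPM in libraries 1 to 3. With fibril-loaded neurons they were 429, 338, 608 and 371 CPM in libraries 1 to 4. The libraries with untreated neurons fell within the range of both other groups, and their coefficient of variation was 3.63% against 31.1% in microglia alone and 27.6% with fibril-loaded neurons. The log2 fold changes were 0.10 (95% interval -0.51 to 0.71) and 0.01 (95% interval -0.56 to 0.57). Its overlapping neighbour Nt5dc2 had mean levels of 161 ± 33.0 CPM (SD, n = 4), 86.9 ± 24.2 CPM (SD, n = 3) and 90.7 ± 38.1 CPM (SD, n = 4) in the same order of groups, and the part of shared reads in Stab1 was not tested.

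F13a1 encodes the A subunit of coagulation factor XIII, a transglutaminase made by tissue macrophages and megakaryocytes. In microglia alone it was at 9.71, 22.6, 3.81 and 59.6 CPM in libraries 1 to 4. With untreated neurons it was at 23.2, 24.7 and 56.7 CPM in libraries 1 to 3. With fibril-loaded neurons it was at 51.3, 10.98, 84.5 and 2.99 CPM in libraries 1 to 4. Libraries within a group differed more than the groups did, with a coefficient of variation of 105% in microglia alone and 101% with fibril-loaded neurons. The log2 fold change was 0.54 with untreated neurons (95% interval -1.34 to 2.43) and 0.65 with fibril-loaded neurons (95% interval -1.12 to 2.41), and was not called (edgeR adjusted p = 0.996 and 1).

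Cbr2 encodes carbonyl reductase 2, an oxidoreductase used as a marker of resident macrophages. It had 248, 12, 0 and 0 counts in libraries 1 to 4 of microglia alone, or 19.4, 1.19, 0 and 0 CPM. With untreated neurons it had 0, 45 and 128 counts in libraries 1 to 3, or 0, 4.03 and 7.59 CPM. With fibril-loaded neurons it had 90, 10, 194 and 4 counts in libraries 1 to 4, or 6.25, 1.17, 18.2 and 0.265 CPM. A single library carried most of the counts of microglia alone. The fitted log2 fold changes of -0.41 and 0.33 had 95% intervals from -5.44 to 4.62 and from -4.30 to 4.95, so they leave the sign of any change unresolved.

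**Figure D3:**
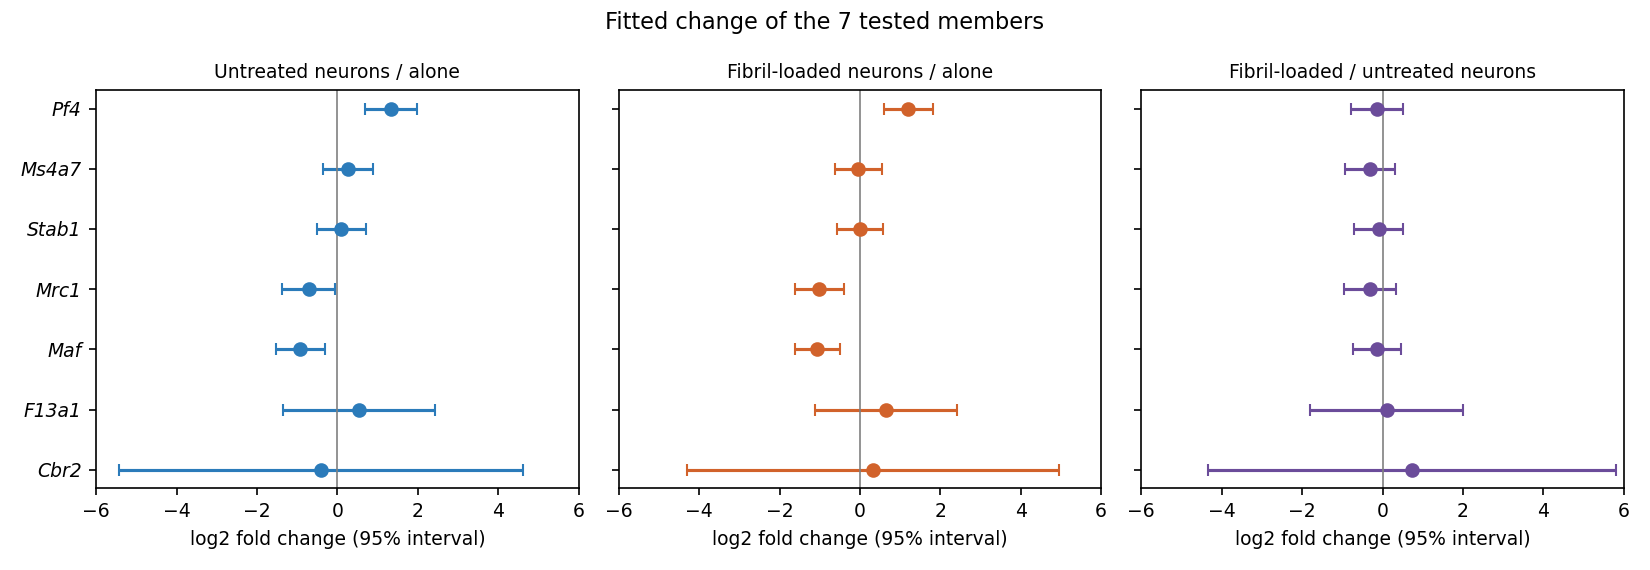
Log2 fold change of the 7 tested genes from the edgeR fit, with 95% intervals, in the 3 comparisons. Against microglia alone the intervals of Pf4 lie above 0 and those of Maf and Mrc1 below 0. Between the co-cultures all 7 intervals span 0, and Cbr2 has the widest interval in every panel.

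Fibril loading was compared directly between the co-cultures. For all 7 tested members the ranges with fibril-loaded and untreated neurons overlapped, where 4.68% of all genes tested lay apart in either direction. No member was called, nor was any gene (0% called by edgeR, smallest adjusted p 0.903). At an unadjusted p below 0.05 there were 445 genes (3.95%) and 0 of the 7 members, and DESeq2 called 158 genes (1.4%) and no member. The log2 fold change was -0.13 for Pf4 (95% interval -0.77 to 0.51), -0.13 for Maf (95% interval -0.73 to 0.46) and -0.30 for Mrc1 (95% interval -0.95 to 0.35). It was -0.31 for Ms4a7 (95% interval -0.93 to 0.31), -0.10 for Stab1 (95% interval -0.71 to 0.52), 0.10 for F13a1 (95% interval -1.80 to 2.00) and 0.74 for Cbr2 (95% interval -4.34 to 5.82). For Pf4, Maf, Mrc1, Ms4a7 and Stab1 a change of 2-fold in either direction lay outside the interval, and for F13a1 and Cbr2 it lay inside. The median over the 7 members was -0.13, beside 0 over all genes tested.

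Whether the members moved together was also read from their correlation on the log2(CPM + 1) scale, over the 6 members with a count in every library and their 15 pairs. Since microglia alone separated from the co-cultures for Pf4, Maf and Mrc1, no r over all libraries is given for their pairs. Within the 7 co-cultures, Ms4a7 and Stab1 had the highest correlation (Pearson r = 0.82, two-sided exact permutation p = 0.0264; Spearman rho = 0.86, exact permutation p = 0.0238). F13a1 and Stab1 followed (Pearson r = 0.79, exact permutation p = 0.0381; Spearman rho = 0.82, exact permutation p = 0.0341). After Benjamini-Hochberg adjustment over the 15 pairs neither passed, with adjusted permutation p of 0.286 for Pearson and 0.256 for Spearman in both pairs. Without the 2 libraries farthest from the median of the first gene, r was 0.95 for Ms4a7 and Stab1 and 0.71 for F13a1 and Stab1. Over all 11 libraries r was 0.17 for Ms4a7 and Stab1 (rho = 0.40, adjusted permutation p = 0.982 and 0.565) and 0.60 for F13a1 and Stab1 (rho = 0.71, adjusted permutation p = 0.2 and 0.116). Without the 2 farthest libraries these became 0.72 and 0.69. Within the co-cultures r was -0.08 for Pf4 and Maf (rho = -0.11, 0.45 without the 2 farthest libraries) and -0.39 for Maf and Mrc1 (rho = -0.43, 0.26 without them), with an adjusted exact permutation p of 0.925 for both r.

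For each member with a count in every library, the genes with the most similar pattern over the 11 libraries were found among 7387 others with a mean of at least 10 CPM. For Pf4 these were Tmcc3, encoding a coiled-coil membrane protein (r = 0.94), and Svbp, encoding a vasohibin-binding protein (r = 0.94). Tmcc3 was at 22.5 ± 7.35 CPM (SD, n = 4) in microglia alone, 84.0 ± 13.9 CPM (SD, n = 3) with untreated neurons and 61.8 ± 14.0 CPM (SD, n = 4) with fibril-loaded neurons. For Maf they were Vps41, a subunit of the lysosomal tethering complex HOPS (r = 0.92), and Hpgd, the prostaglandin-degrading dehydrogenase (r = 0.90). Hpgd was at 222 ± 118 CPM (SD, n = 4), 30.9 ± 2.77 CPM (SD, n = 3) and 30.5 ± 22.4 CPM (SD, n = 4) in the same order of groups. For Mrc1 the nearest genes were Gps2 (r = 0.92) and Pik3cd (r = 0.91), for F13a1 Pgm2l1 and Pon2 (r = 0.93 for both), for Ms4a7 Stx16 and Adprh (r = 0.85 for both) and for Stab1 Rxrb (r = 0.88) and Eny2 (r = 0.86). These genes were picked for their likeness over libraries that share depth and group. Their levels are therefore a description, and tests of them between groups are not independent of that choice.

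Other genes reported for border-associated macrophages gave 29 further rows, of which 26 were tested. With untreated neurons 1 was called, the MS4A family member Ms4a6c. There 9 of 26 had an unadjusted p below 0.05 (10.3% of all genes), and the median log2 fold change was 0.55. DESeq2 called Ms4a6c higher and Dab2 lower (4.02% of all genes). Dab2 was at 1424 to 1768 CPM in microglia alone and 810 to 1227 CPM with untreated neurons. Ms4a6c rose from 197 ± 46.9 CPM (SD, n = 4) to 607 ± 120 CPM (SD, n = 3), a log2 change of 1.62 (SE 0.32, edgeR adjusted p = 0.015). That call was lost without library 2 of microglia alone (adjusted p = 0.0595) and without library 3 with untreated neurons (adjusted p = 0.0848). With fibril-loaded neurons Ms4a6c was at 468 ± 190 CPM (SD, n = 4), apart from microglia alone but not called (log2 fold change 1.25, edgeR adjusted p = 0.0954). In that comparison edgeR called no gene of the list, with 5 of 26 at an unadjusted p below 0.05 (8.14% of all genes) and a median of 0.40. DESeq2 called Ms4a6c alone (1.99% of all genes). Between the co-cultures neither tool called any, 1 of 26 had an unadjusted p below 0.05, and the median was -0.18. The smallest p there belonged to Fcna, the lectin ficolin A, at 14.6 to 64.1 CPM in microglia alone, 8.53 to 11.4 CPM with untreated and 18.6 to 45.1 CPM with fibril-loaded neurons. Slc40a1, the iron exporter ferroportin, was at 56.7 to 129 CPM in microglia alone, 14.3 to 42.1 CPM with untreated and 4.45 to 54.0 CPM with fibril-loaded neurons, and was not called (edgeR adjusted p = 0.477 and 0.448). The folate receptor Folr2, a standard marker of tissue-resident macrophages, overlapped between all groups at 16.5 to 61.7, 24.8 to 48.9 and 10.0 to 38.1 CPM. Cd209f, a lectin of border macrophages, had no count in any library. The medians were the same with Timd4, which had no count in microglia alone, set to its bound.

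**Figure D4:**
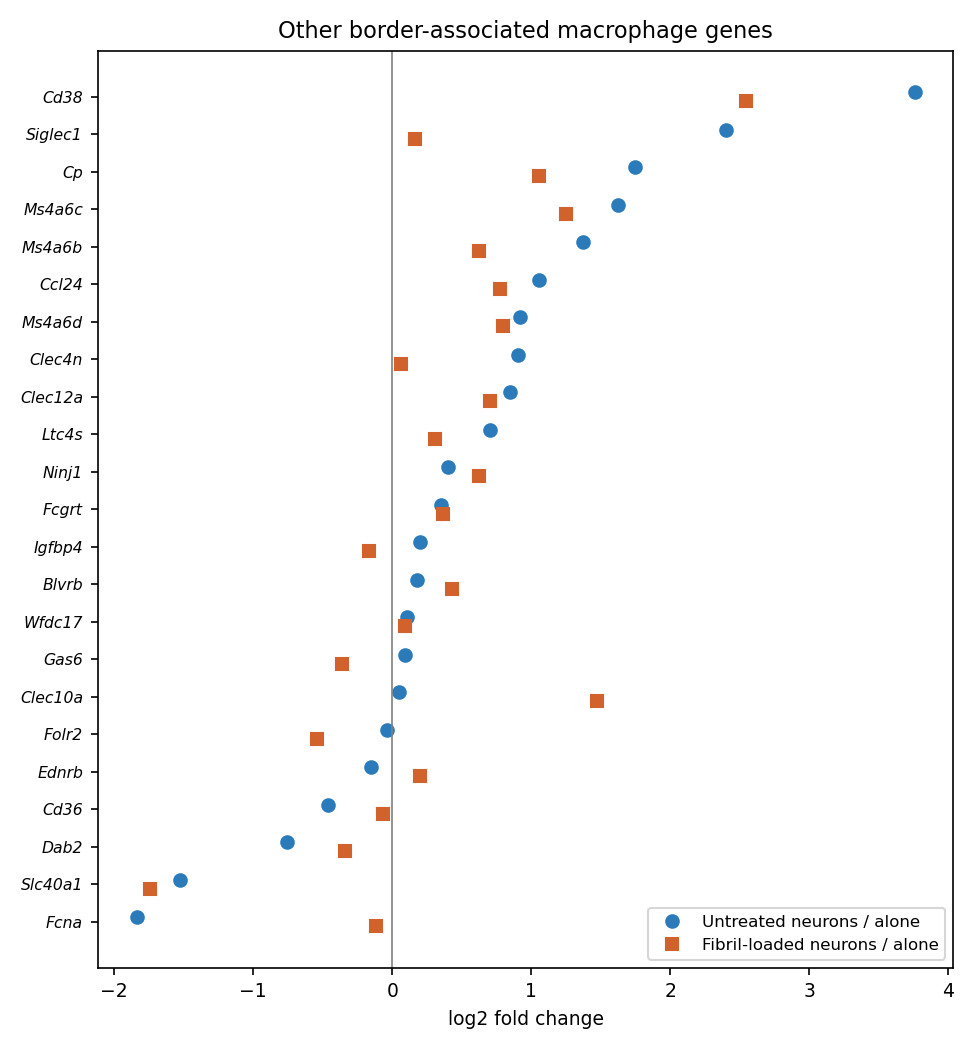
Fitted log2 fold change against microglia alone of 23 other genes reported for border-associated macrophages, with untreated neurons (circles) and with fibril-loaded neurons (squares). The other 3 of the 26 tested had at most 3 counts in microglia alone and are not drawn. Ms4a6c (1.62 with untreated neurons) is the only gene called, and Slc40a1 lies lowest for fibril-loaded neurons (-1.74).

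Transcription factors of macrophages were read beside Maf. None of the 15 tested was called by edgeR in the comparisons against microglia alone, with 6 of 15 at an unadjusted p below 0.05 in each (10.3% and 8.14% of all genes) and medians of 0.45 and 0.03. DESeq2 called 4 with untreated neurons (4.02% of all genes), Mef2a and Nr1h3, higher, and Mef2c, lower, among them. With fibril-loaded neurons it called 1, Nr1h3, higher (1.99% of all genes). Mef2c, a MADS-box factor of microglia, was at 339 to 518 CPM in microglia alone, 175 to 244 CPM with untreated and 188 to 330.1 CPM with fibril-loaded neurons and was not called (edgeR adjusted p = 0.155 and 0.494). Its relative Mef2a was at 55.8 to 114, 140.1 to 235 and 108 to 186 CPM (edgeR adjusted p = 0.144 and 0.375), and Cebpa, a myeloid factor, at 56.4 to 62.9, 77.3 to 233 and 78.4 to 213 CPM (edgeR adjusted p = 0.149 and 0.22). Mef2c was named after its values were seen.

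Signals known to change Mrc1 and Cd163, namely interleukin-4, interleukin-10 and glucocorticoids, were read from 15 tested genes of their receptors and responses. With untreated neurons Sgk1 and Il4ra were called higher, 7 of 15 had an unadjusted p below 0.05 (10.3% of all genes) and the median log2 fold change was 0.82. Sgk1, a kinase gene that glucocorticoids and osmotic stress induce, rose from 34.1 ± 14.8 CPM (SD, n = 4) to 212 ± 61.9 CPM (SD, n = 3), a log2 change of 2.64 (edgeR adjusted p = 0.015). Its call was lost without library 1 or 2 of microglia alone (adjusted p = 0.0688 and 0.0602) or library 3 with untreated neurons (0.06). Il4ra, the interleukin-4 receptor subunit, rose from 57.6 ± 28.5 CPM (SD, n = 4) to 193 ± 44.4 CPM (SD, n = 3), a log2 change of 1.75 (edgeR adjusted p = 0.0371), and kept its call in 4 of 11 fits without 1 library. With fibril-loaded neurons edgeR called no gene of the list, DESeq2 called Sgk1, 8 of 15 had an unadjusted p below 0.05 (8.14% of all genes) and the median was 0.36. Here Sgk1 was at 142 ± 104 CPM (SD, n = 4; edgeR adjusted p = 0.0847) and Hmox1, the haem-degrading enzyme, at 566 ± 379 CPM (SD, n = 4) against 204 ± 100.1 CPM (SD, n = 4) in microglia alone (edgeR adjusted p = 0.279).

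Scavenger receptors and lectins related in function to Mrc1, Cd163 and Stab1 gave 14 tested genes and no edgeR call against microglia alone. DESeq2 called Olr1 with untreated (4.02% of all genes) and with fibril-loaded neurons (1.99%). In the same order, 2 and 3 of 14 had an unadjusted p below 0.05 (10.3% and 8.14% of all genes), and the medians were -0.02 and -0.06. Olr1, the receptor for oxidised low-density lipoprotein, had no count in the 4 libraries of microglia alone and was at 5.27 to 14.6 CPM with untreated and 4.67 to 22.5 CPM with fibril-loaded neurons. Against a floor of 3 counts per library these means were at least 34.1-fold and 39.9-fold higher, and they were not called (edgeR adjusted p = 0.0883 and 0.116). Scarb1, a lipoprotein receptor, was at 123 to 267 CPM in microglia alone and 71.5 to 101 CPM with untreated neurons (edgeR adjusted p = 0.386). Cd14, the lipopolysaccharide co-receptor, overlapped between microglia alone at 99.7 to 275 CPM and fibril-loaded neurons at 125 to 823 CPM (edgeR adjusted p = 0.561).

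Genes used as markers of microglia were read beside the border list and were not treated as exclusive to microglia. Of 12 tested, Cx3cr1 and Olfml3 were called higher in both comparisons against microglia alone, with 4 of 12 at an unadjusted p below 0.05 in each (10.3% and 8.14% of all genes) and medians of 1.05 and 0.65. Cx3cr1, the fractalkine receptor, rose from 602 ± 158 CPM (SD, n = 4) to 1880.1 ± 312 CPM (SD, n = 3) with untreated neurons, a log2 change of 1.64 (edgeR adjusted p = 0.00613). With fibril-loaded neurons it rose to 1858 ± 521 CPM (SD, n = 4), a log2 change of 1.63 (edgeR adjusted p = 0.00527). Both calls of Cx3cr1 held in all 11 fits without 1 library. The summed level of the 13 listed genes in the table ran from 1177 to 2235 CPM in microglia alone, 3124 to 3866 CPM with untreated and 2328 to 4008 CPM with fibril-loaded neurons. Both co-culture ranges lay above that of microglia alone, but with fibril-loaded neurons this rested on Cx3cr1. Without it, the other 12 genes summed to 730 to 1421 CPM in microglia alone, 1426 to 1905 CPM with untreated and 906 to 2104 CPM with fibril-loaded neurons, so the range with fibril-loaded neurons overlapped that of microglia alone. Between the co-cultures neither tool called a gene of this list, of the transcription factors, of the scavenger receptors or of the cytokine and glucocorticoid list, and 0 of them had an unadjusted p below 0.05. Olfml3, a secreted matrix protein of microglia, was at 0 to 3.27, 25.5 to 73.4 and 29.8 to 79.1 CPM (edgeR adjusted p = 0.0268 and 0.0193). Its calls were lost without library 1 of microglia alone (adjusted p = 0.0778 and 0.0642) or library 2 with fibril-loaded neurons (0.0523 and 0.0648). The first was also lost without library 2 with untreated neurons (0.0755), and the second without library 1 with fibril-loaded neurons (0.0563).

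Markers of other cells were read for the same libraries, and their part in the levels of the 9 genes was not tested. Summed neuronal markers were at 1287 to 1550 CPM over 15 listed genes in microglia alone, 609.8 to 876 CPM with untreated neurons and 777 to 1185 CPM with fibril-loaded neurons. Of the sum in microglia alone 90.7% was Basp1, a gene of growing axons, and without it the other 14 genes summed to 80.2 to 190 CPM, 1.07 to 30.1 CPM and 8.63 to 46.2 CPM. Both sums were lower in the libraries kept with neurons. The migrating-neuron gene Dcx was the only one of the 7 tested that edgeR called (edgeR adjusted p = 0.0268), lower with untreated neurons. It was at 15.9 to 66.5 CPM in microglia alone, with 2 counts in all with untreated neurons and 0 to 6.17 CPM with fibril-loaded neurons. That call was lost in 5 of 11 fits without 1 library (adjusted p up to 0.103). DESeq2 called Basp1, Dcx and Stmn2 lower with untreated neurons (4.02% of all genes tested) and Dcx lower with fibril-loaded neurons (1.99%). Between the co-cultures DESeq2 called Dcx (1.4% of all genes tested). Snap25 had no count in any library. Summed endothelial and lymphatic markers, which include cells that express Lyve1 and Stab1, ran from 14.1 to 47.9, 9.14 to 52.1 and 4.60 to 36.3 CPM, and Tek had no count. Monocyte, neutrophil and dendritic cell markers ran from 233 to 878, 312 to 569 and 363 to 1034 CPM, with Ly6g and Flt3 at 0 in every library. Of these, Fn1, the fibronectin gene, was called with fibril-loaded neurons, from 22.1 ± 9.69 CPM (SD, n = 4) in microglia alone to 135 ± 34.0 CPM (SD, n = 4), a 6.07-fold change (edgeR adjusted p = 0.00584) that held in all 11 fits without 1 library. With untreated neurons Fn1 was at 70.0 ± 38.6 CPM (SD, n = 3) and was called by DESeq2 but not by edgeR (log2 fold change 1.66, edgeR adjusted p = 0.112), and between the co-cultures neither tool called it. DESeq2 also called S100a8 in both comparisons against microglia alone and Vcan, lower, with untreated neurons. S100a4 made up 94.3%, 81.4% and 77.3% of this list's sum in the 3 groups. Fibroblast and mural cell markers ran from 20.3 to 37.3, 48.1 to 78.7 and 47.4 to 113 CPM, with Dcn, Pdgfrb, Rgs5 and Igf2 at 0. The higher sums were those of Cspg4, a proteoglycan gene of pericytes and glial progenitors, with means of 15.6, 59.8 and 73.9 CPM, while the other 10 genes summed to means of 14.0, 5.63 and 2.36 CPM. Astrocyte markers ran from 26.3 to 56.9, 25.2 to 104 and 20.7 to 110.0 CPM, and oligodendrocyte lineage markers from 161 to 268, 215 to 281 and 99.7 to 245 CPM.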

How the data were processed

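Primary mouse microglia were profiled by 3′ mRNA sequencing in 11 libraries. The values used are raw counts by gene symbol, which the authors deposited with no more than 6 significant digits. STAR, Partek, DESeq2 and mm10 appear in the submitters' processing notes, while versions, strand use and duplicate removal are not given in the sources used here. A deposited normalized table was not used. Groups came from the treatment label, and library numbers follow the order of deposition within each group.

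Of 16934 genes, 2828 had no count and 11276 passed edgeR's filterByExpr. The fit was made in edgeR 4.0.16 under R 4.3.3 (TMM scaling, quasi-likelihood test, group as the only term, threshold 0.05), with DESeq2 1.42.0 as an alternative. The code was tested on simulated data. The members and lists were chosen with earlier results of these data known. Named beside the members were called genes of each list, up to 3, otherwise the 2 with the smallest p, and the 2 genes most correlated with each member. Mef2c, Folr2, Hmox1, Nt5dc2, Ppbp, Itga2b and genes at 0 were added outside that rule, and 1 gene of the lists is not reported here. Ranges were apart where no library of 1 group reached the other. The lists covered other border macrophage, microglial, transcription factor, scavenger receptor and cytokine response genes, and markers of platelets, endothelium, monocytes and related cells, fibroblasts, neurons, astrocytes and oligodendrocytes. Correlations used log2(CPM + 1), with 5040 exact permutations within the co-cultures and 100000 over all libraries. Intervals are 95% from the fit, and the floor of 3 counts covers counting error only. Of 16934 symbols, 16919 matched RefSeq by symbol or synonym. Each result was also computed with RLE scaling, without the low-count filter, with a CPM minimum of 5 on the mean, by DESeq2, without Rn45s, without each library in turn, from the 2 groups compared alone and with a block from the library codes. For correlations log2(CPM + 10) was tried.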

Additional observations from a re-analysis of the deposited data

Results flagged for a closer look

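Cbr2 in library 1 of microglia alone was at 19.4 CPM, far from the other libraries of its group, which were at 1.19, 0 and 0 CPM. Its gap to the nearest library was 0.939 of the whole range, above the critical value of Dixon's test for 4 samples at the 95% level. Of the 14 groups of 4 libraries examined for the members, 1 passed, and 1 in 20 is the rate at which chance alone does so.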

How the results depend on the processing

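Pf4 stayed higher and Maf and Mrc1 lower than in microglia alone in all 19 alternatives of both comparisons. Of 399 member values under an alternative, 347 kept their direction and side of the threshold, 13 lost a call, 6 gained one and 33 changed sign, none of them a called value. For untreated neurons against microglia alone, 72 genes and 1 member were called. This became 234 genes without the low-count filter, 47 genes and 0 members with a mean CPM of at least 5, 453 (171 higher, 282 lower) and 2 members by DESeq2, and 41 and 0 members with the 2 groups compared only. Leaving out the library with the fewest detected genes of each group, chosen after seeing the data, gave 29 and 0 members (Pf4 adjusted p = 0.193). The average of both co-cultures against microglia alone, also chosen after seeing the data, gave 116 and 2 members. For fibril-loaded neurons against microglia alone, 36 genes and 0 members became 164 and 1 without the filter, 224 and 3 by DESeq2, and 116 and 2 in that average. Between the co-cultures, 0 genes became 5 without the filter, 158 by DESeq2 and 1 without the libraries of fewest genes. The joint test called 0 members, 1 without the filter and 2 by DESeq2. The cause of these shifts was not tested.

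Leaving out 1 library gave 32 to 76 called genes and 0 to 1 members for untreated neurons, 23 to 42 genes for fibril-loaded neurons, and 0 to 1 between the co-cultures. The first count fell by over 1.5 times without library 1 (32), 2 (36) or 4 (41) of microglia alone, 1 (46) or 3 (37) with untreated neurons, or 4 (47) with fibril-loaded neurons, and the second without library 2 of microglia alone (23). The 1 call between the co-cultures arose without library 1 or 2 with untreated neurons or library 4 with fibril-loaded neurons. With untreated neurons the log2 fold change then ran from -1.35 to 3.26 for Cbr2 and from -0.069 to 0.30 for Stab1. With fibril-loaded neurons it ran from -1.005 to 4.02 for Cbr2, from -0.14 to 1.64 for F13a1, from -0.21 to 0.10 for Ms4a7 and from -0.20 to 0.22 for Stab1. Between the co-cultures it ran from -0.37 to 0.023 for Pf4, -0.25 to 0.0056 for Maf, -0.55 to 0.014 for Mrc1, -0.68 to 0.64 for F13a1, -0.59 to 1.68 for Cbr2 and -0.30 to 0.0080 for Stab1. Without the libraries of fewest genes, the sign changed for Cbr2 (3.87) and Stab1 (-0.063) with untreated neurons, for Stab1 (-0.14) with fibril-loaded neurons, and for Maf (0.045) and F13a1 (-0.34) between the co-cultures. Cx3cr1 then missed the threshold with untreated neurons (adjusted p = 0.0538). Among the 15 pairs of members, 0 correlations over all libraries passed adjustment under any alternative. With 3 or 4 libraries a group, the wide intervals of F13a1 and Cbr2 limit what could be seen.

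The labels number no replicates, but the codes in the library titles step by 7 within each group, which puts the libraries in 4 sets. What the codes stand for is not stated. The deviations from the group means of libraries in the same set had correlations of -0.024 to 0.069 over all 11276 genes tested (10 pairs), and of -0.099 to 0.435 over the 1591 genes at 100 CPM or more, and 5 and 7 of the 11 libraries correlated best with one of their own set. Pairs from different sets (30 pairs) ran from -0.0517 to 0.0495 over all genes tested and from -0.314 to 0.307 at 100 CPM or more. The mean r within and between sets was 0.0275 and -0.00906 over all genes, and 0.147 and -0.0474 at 100 CPM or more. From the values over all genes tested, the sets were not taken as pairing the libraries. Shared handling within a set was not tested, also for the genes at 100 CPM or more, which include Pf4, Maf, Mrc1, Ms4a7 and Stab1. All p-values of the fits and of the exact permutations treat libraries as independent. With these sets as a replicate block, chosen after seeing the data, 95 genes were called with untreated neurons (Pf4 adjusted p = 0.0378), 66 with fibril-loaded neurons and 0 between the co-cultures. Under the block 1 member, Pf4, was called with fibril-loaded neurons too (log2 fold change 1.20, edgeR adjusted p = 0.0159) and in the joint test (adjusted p = 0.0241), and no other member was called. The sign changed under the block for Cbr2 with untreated neurons (3.15), and between the co-cultures for Pf4 (0.034), F13a1 (-0.21), Cbr2 (-0.10) and Stab1 (0.016).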
